A study of Mus musculus with 19 samples.

Results

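The genes described here supply amino acids to the cell or answer their shortage: 38 genes known as targets or partners of the transcription factor ATF4. They were taken by gene symbol and not by a measured value, but they were chosen with earlier results of these data known. All 38 were listed in each of the 4 expression tables, among 22101 genes listed in any table. By role they are 7 transcription factors, 5 stress effectors, 9 enzymes of amino acid and one-carbon synthesis, 8 amino acid transporters and 9 cytosolic tRNA synthetases. The data are bulk RNA-seq of B-lineage cells from mice injected intraperitoneally with sheep red blood cells and sampled on day 28, and the study asked how PI3Kγ, the lipid kinase whose catalytic subunit Pik3cg encodes, bears on antibody responses. Its design names 4 Pik3cg knockout and 3 wild-type mice, so libraries of different cell types may share animals, and where nothing shows separate animals the p-values measure only the spread between these libraries.

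The 19 libraries fall into 6 groups, all immunized. Splenic germinal centre B cells, sorted as CD95+ and GL7+, came as 4 libraries labelled Pik3cg knockout and 3 labelled wild type. Splenic naive B cells, sorted as CD3-, B220+ and IgD+, came as 3 labelled knockout and 3 labelled wild type. Antibody-secreting cells, sorted on CD138, came from bone marrow (n = 3) and spleen (n = 3) and were all labelled wild type. The sources used here give no strain, age, sex or kind of knockout allele.

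ATF4 is made when amino acid shortage, misfolded protein in the endoplasmic reticulum or other stresses lead a kinase to phosphorylate the translation factor eIF2, which slows most translation but lets the Atf4 message be read. ATF4 then pairs with C/EBP-type proteins on DNA and raises genes that import, synthesize and charge amino acids, together with stress regulators such as CHOP, the product of Ddit3. Germinal centre B cells divide quickly and plasma cells export large amounts of antibody, so both are heavy users of amino acids.

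Sequencing depth ran between 10.2 and 21.6 M reads per library, as recovered from the worth of 1 read in the deposited CPM (read counts scaled to a common library total). Immunoglobulin genes and Jchain took 78.0 to 83.6% of the CPM in bone marrow secreting cells and 72.3 to 76.7% in spleen secreting cells, against 2.6 to 13.6% in germinal centre and 3.7 to 4.2% in naive libraries. Pik3cg, the targeted gene, did not separate the labels: it was at 66.0, 52.8, 6.55 and 9.04 CPM in the 4 germinal centre libraries labelled knockout and 56.5, 34.3 and 19.4 CPM in the 3 labelled wild type, and at 94.98, 127 and 97.7 CPM in naive libraries labelled knockout and 115, 110.1 and 111 CPM in the wild-type-labelled ones. All directions below are therefore those of the labels. The 9 naive and secreting-cell columns labelled wild type are headed HET in the tables. The CD95+ GL7+ libraries labelled wild type went against their cell type label: 7 germinal centre markers summed to 2170 to 2854 CPM in knockout-labelled libraries and 237 to 263 CPM in the wild-type-labelled ones, with Rgs13 and Gcsam at 0 in all 3 of the wild type. T cell markers (9 genes, 7 of 8 tested higher) summed to 863 to 1725 CPM in the knockout-labelled libraries and 41.5 to 78.2 CPM in the wild-type-labelled libraries, macrophage markers (8 genes, 3 of 8 tested higher) to 141 to 1573 CPM in the knockout-labelled libraries and 77.1 to 202 CPM in the wild-type-labelled libraries, and erythroid markers (6 genes, 3 of 4 tested higher) to 29.7 to 2977 CPM in the knockout-labelled libraries and 0.051 to 2.41 CPM in the wild-type-labelled libraries. Cd3e, a chain of the T cell receptor complex, was at 0 in all 3 germinal centre libraries labelled wild type. Antibody-secreting markers, 5 of 8 lower in the labelled knockout, summed to 4099 to 12082 CPM there and 7292 to 11555 CPM in the wild-type-labelled libraries, with Xbp1 at 356, 519, 541 and 498 CPM in the labelled knockout, against 2459, 2868 and 3742 CPM in the wild-type-labelled libraries. The part of these markers in the results on germinal centre B cells was not tested. Replicate 1 of the labelled knockout, which has the most erythroid RNA of that group, and replicate 3 of the labelled wild type were known from earlier results of these data to stand apart, and the main count is given without them as well.

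The DNA element through which ATF4 and C/EBP proteins act is commonly written as the core TGATGNAA, searched here on both strands of RefSeq promoter windows of GRCm38.p6 that run from 250 bases before to 50 bases after each start. Windows were matched by symbol for 30 of the 38 members, and the core was present for 12 of the 30 members with a window, in 36.36% of their 33 windows, against 3.97% of 32851 windows of all genes. The stricter form TGATGCAA, contained in the first, was present for 9 members, in 27.27% of member windows and 0.89% of all windows. Since the members were chosen as known ATF4 targets, these shares are a description, and a match is no evidence of binding. The stretches below are shown because they sit before the starts of 4 members that were lower in the germinal centre libraries labelled knockout (Nupr1, Chac1, Pycr1 and Asns) and of 2 members that did not pass that test (Aars and Tars). Capitals mark the element, which reads TTGCATCA where it lies on the opposite strand to the gene, and each stretch is written 5′ to 3′ on the gene's strand. The Nupr1 stretch is chr7:126625553-126625600 (minus strand), Chac1 chr2:119351029-119351076 (plus), Pycr1 chr11:120643824-120643871 (minus), Asns chr6:7693210-7693252 (minus), Aars chr8:111033710-111033757 (plus) and Tars chr15:11399659-11399693 (minus).
Nupr1: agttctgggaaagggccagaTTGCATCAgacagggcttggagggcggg
Chac1: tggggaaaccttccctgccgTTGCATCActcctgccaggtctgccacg
Pycr1: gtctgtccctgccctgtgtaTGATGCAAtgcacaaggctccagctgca
Asns: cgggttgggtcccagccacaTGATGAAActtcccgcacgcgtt
Aars: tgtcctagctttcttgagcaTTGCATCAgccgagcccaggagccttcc
Tars: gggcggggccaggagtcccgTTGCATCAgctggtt

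Nupr1, Chac1 and Pycr1 hold the stricter form, at bases -110, -193 and -103 from the start, and Asns holds the looser form at base -23. Gars and Atf3 had a match before the start as well, Slc7a11 had a pair there, and Aars had another after its start. The match of Slc1a4 lay across the start and those of Trib3 and Iars after it. In the GENCODE M21 annotation of the same build, Atf4 lies at chr15:80255184-80257541 (plus strand), Ddit3 at chr10:127290774-127296288 (plus), Phgdh at chr3:98313170-98339990 (minus) and Slc3a2 at chr19:8706882-8723369 (minus). No match was found in the windows of these 4 genes, which says only that these letters are not in those windows. Ddit3 has another entry in that annotation, chr10:127290829-127293753 (plus), whose exons overlap those of the first. The sources used here do not say how reads shared by both entries were counted.

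In germinal centre B cells, 16 of the 34 members that could be tested were lower in the libraries labelled knockout and 0 were higher. Among all 8522 genes tested, 5.09% were lower and 8.54% higher. The lower members span every role: the transcription factors Atf5, Ddit3 and Nupr1, the stress effectors Trib3, Chac1 and Eif4ebp1, the enzymes Phgdh, Psph, Shmt2, Asns and Pycr1, the transporter Slc3a2 and the synthetases Nars, Sars, Iars and Eprs. A gene was tested where it averaged at least 10 CPM over the 7 libraries and passed where limma's Benjamini-Hochberg adjusted p over all genes was under 0.05. On the log2 scale the median difference, labelled knockout minus labelled wild type, was −1.99 over the 34 members and 0.03 over all genes. Of the 34, 9 passed the filter only through 1 group (Atf5, Nupr1, Trib3, Chac1, Sesn2, Ddit4, Pycr1, Cth and Slc7a5). They had to differ, so they support nothing in that count, in the median or in the counts below that hold them. Of the other 25 members, which averaged at least 10 CPM in both groups, 11 were lower, against 4.4% of the 7292 such genes. The 2 groups of libraries did not overlap for 27 of the 34, all with the labelled knockout below, against 11.7% of all genes tested. Among the 25 that averaged at least 10 CPM in both groups it was 19, against 10.4% of such genes. With median-ratio scaling in place of the deposited total, 18 were lower, against 6.01% of genes. Without replicate 3 of the labelled wild type the count was 9 of 33, against 2.47% of genes lower, and without that library and replicate 1 of the labelled knockout it was 6 of 33, against 1.67% of genes lower. The 6 were Ddit3, Nupr1, Eif4ebp1, Phgdh, Asns and Eprs, of which Nupr1 is among the 9 that had to differ. Fewer cells of a type and less RNA per cell cannot be told apart in such bulk libraries.

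**Figure D1:**
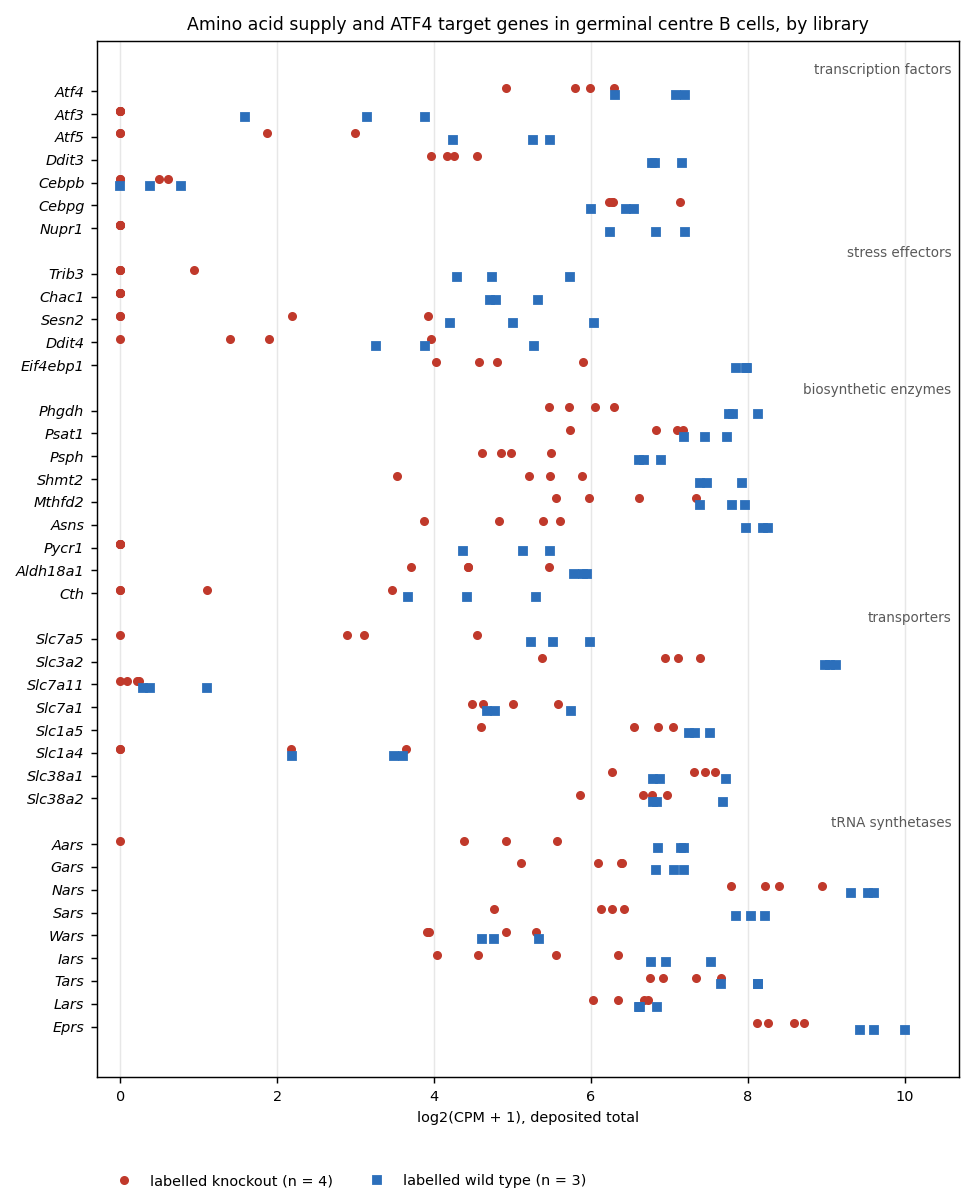
Level of each of the 38 members in the 7 germinal centre B cell libraries, as log2(CPM + 1) of the deposited values, with red circles for the 4 libraries labelled knockout and blue squares for the 3 labelled wild type. For 27 of the 34 tested members every red circle lies left of every blue square, and Nupr1, Chac1, Pycr1 and Atf3 have all red circles at 0.

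Among the transcription factors, Atf4 itself was at 62.2, 77.3, 54.7 and 29.2 CPM in the knockout-labelled libraries (replicates 1 to 4) and 135, 147 and 78.1 CPM in the wild-type-labelled ones (replicates 1 to 3). The groups came close without overlapping, and the log2 fold change of −1.12 ± 0.38 (± SE, here and below, on log2(CPM + 1)) did not pass (limma adjusted p = 0.0862). Ddit3, which encodes the stress factor CHOP, was at 18.1, 22.3, 16.9 and 14.6 CPM in the knockout-labelled libraries and 143, 109 and 112 CPM in the wild-type-labelled libraries. Every knockout-labelled library lay several-fold below every wild-type-labelled one, a log2 fold change of −2.69 ± 0.32 (limma adjusted p = 0.00116). Atf5, a related factor of the same stress response, was at 0, 2.66, 0 and 6.93 CPM in the knockout-labelled libraries and 37.2, 17.9 and 43.8 CPM in the wild-type-labelled libraries, with no overlap and a log2 fold change of −3.78 ± 0.99 (limma adjusted p = 0.0357). Nupr1, a stress-induced chromatin protein, was listed at 0 in all 4 knockout-labelled libraries and at 146, 113 and 74.9 CPM in the wild-type-labelled ones (limma adjusted p = 0.000702). An exact 0 in this table may be a failed estimate, since Aars, a tRNA synthetase that every cell uses, was also listed at 0 in replicate 2 of the labelled knockout, and no fold is given against a group at 0. Atf3, an immediate stress factor below the filter and not tested, was listed at 0 in all 4 knockout-labelled libraries and at 7.82, 2.00 and 13.8 CPM in the wild-type-labelled ones. The C/EBP partners behaved otherwise: Cebpg did not pass, with a log2 fold change of 0.14 ± 0.30, and Cebpb stayed under 1 CPM in all 7 germinal centre libraries.

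Of the 5 stress effectors, 3 passed, all lower in the labelled knockout. Trib3, Chac1, Sesn2 and Ddit4 passed the filter on low values only through the wild-type-labelled group, which fixed the sign of their fold changes, so Eif4ebp1 alone could have gone either way. Trib3, a pseudokinase induced by ATF4 that binds Akt and ATF4 itself, was at 0.920, 0, 0 and 0 CPM in the knockout-labelled libraries and 18.6, 52.1 and 25.7 CPM in the wild-type-labelled libraries. Only replicate 1 of the labelled knockout was above 0, and the log2 fold change was −4.68 ± 0.89 (limma adjusted p = 0.00901). Chac1, which degrades glutathione, was listed at 0 in all 4 knockout-labelled libraries and at 39.1, 25.3 and 26.7 CPM in the wild-type-labelled ones (limma adjusted p = 0.00624). Eif4ebp1, the repressor of cap-dependent translation 4E-BP1, was at 22.8, 58.6, 15.2 and 26.8 CPM in the knockout-labelled libraries and 250.4, 254 and 229.8 CPM in the wild-type-labelled libraries. The wild-type-labelled libraries were tightly grouped, all far above the others, and the log2 fold change was −3.12 ± 0.41 (limma adjusted p = 0.00174). Sesn2 and Ddit4, both inhibitors of the growth kinase mTORC1, did not pass, at log2 fold changes of −3.55 ± 1.12 and −2.33 ± 1.08, with wide errors and at least 1 library labelled knockout at 0 for each.

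All 9 biosynthetic enzymes had negative fold changes, fixed by the filter for Pycr1 and Cth, and 5 passed. Asns, which makes asparagine from aspartate and glutamine, was at 47.7, 27.3, 13.6 and 40.8 CPM in the knockout-labelled libraries and 291, 304 and 252 CPM in the wild-type-labelled libraries. The 2 groups lay far apart, with a log2 fold change of −3.22 ± 0.40 (limma adjusted p = 0.00136). In the serine pathway, Phgdh, the first enzyme, was at 65.2, 51.9, 43.3 and 77.5 CPM in the knockout-labelled libraries and 215, 225 and 278 CPM in the wild-type-labelled libraries. Every knockout-labelled library was below every wild-type-labelled one, a log2 fold change of −2.02 ± 0.25 (limma adjusted p = 0.00131). Psat1, the second enzyme, was at 136, 143, 52.3 and 112 CPM in the knockout-labelled libraries and 174, 211.9 and 145 CPM in the wild-type-labelled libraries, closer together, and its log2 fold change of −0.75 ± 0.35 did not pass (limma adjusted p = 0.196). Psph, the last enzyme, was at 30.7, 44.1, 23.5 and 27.9 CPM in the knockout-labelled libraries and 102, 97.2 and 118 CPM in the wild-type-labelled libraries, with no overlap and a log2 fold change of −1.74 ± 0.30 (limma adjusted p = 0.00624). Exons of Psph overlap those of Cct6a on the other strand, as do those of Atf5 with Il4i1 and Nup62, Shmt2 with Ndufa4l2, and Ddit3 with Mars. The sources used here name no strand setting for the counting, so reads of such partners cannot be told apart, and the values of these genes are uncertain to that extent.

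Downstream of serine, Shmt2, which splits it into glycine and a folate-bound carbon in mitochondria, was at 58.0, 10.5, 36.1 and 43.4 CPM in the knockout-labelled libraries and 167, 178 and 242 CPM in the wild-type-labelled libraries. Replicate 2 of the labelled knockout was the lowest, no libraries overlapped, and the log2 fold change was −2.58 ± 0.52 (limma adjusted p = 0.0114). Mthfd2, the mitochondrial folate enzyme that acts next, had a log2 fold change of −1.35 ± 0.40 and did not pass (limma adjusted p = 0.0545). Pycr1, the mitochondrial enzyme that finishes proline synthesis, was listed at 0 in all 4 knockout-labelled libraries and at 19.6, 43.5 and 34.2 CPM in the wild-type-labelled ones (limma adjusted p = 0.00629). Aldh18a1, which begins proline synthesis, and Cth, which makes cysteine from cystathionine, did not pass, at log2 fold changes of −1.37 ± 0.46 and −3.32 ± 1.09. For both the libraries of the 2 groups did not overlap.

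Of the 6 transporters tested, Slc3a2 alone passed. It encodes the CD98 heavy chain, the partner that carries several amino acid exchangers to the cell surface, and was at 123, 40.6, 166 and 137 CPM in the knockout-labelled libraries and 528, 506 and 558 CPM in the wild-type-labelled libraries. The groups were far apart, with a log2 fold change of −2.35 ± 0.42 (limma adjusted p = 0.00714). Slc7a5, the light chain with which CD98 imports leucine and other large neutral amino acids, was at 6.38, 22.3, 7.59 and 0 CPM in the knockout-labelled libraries and 44.6, 62.4 and 36.6 CPM in the wild-type-labelled libraries. These libraries did not overlap, but the log2 fold change of −2.94 ± 0.99 did not pass (limma adjusted p = 0.0858). Slc1a5, a glutamine and neutral amino acid exchanger, had a log2 fold change of −1.10 ± 0.53, and Slc38a2, a sodium-coupled neutral amino acid importer, −0.53 ± 0.33. Slc38a1, its close relative, and Slc7a1, the cationic amino acid importer, had log2 fold changes near 0, at 0.02 ± 0.36 and −0.14 ± 0.46. None of these 4 passed. Slc7a11, the cystine importer, was too low to test, at 0.173, 0, 0.0608 and 0.158 CPM in the knockout-labelled libraries and 0.217, 0.301 and 1.14 CPM in the wild-type-labelled libraries, as was Slc1a4, a neutral amino acid exchanger.

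All 9 tRNA synthetases had negative fold changes, with 4 past the threshold. Nars, which charges asparagine, was at 220.1, 492.7, 336 and 297 CPM in the knockout-labelled libraries and 778, 636 and 741 CPM in the wild-type-labelled libraries. Eprs, which charges glutamate and proline in 1 protein, was at 306, 422, 386 and 276.5 CPM in the knockout-labelled libraries and 1025, 782 and 692 CPM in the wild-type-labelled libraries. Neither gene's groups overlapped, and the log2 fold changes were −1.15 ± 0.25 for Nars (limma adjusted p = 0.0154) and −1.26 ± 0.20 for Eprs (limma adjusted p = 0.00372). Sars, which charges serine, was at 68.7, 75.9, 84.5 and 26.1 CPM in the knockout-labelled libraries and 264, 297 and 229 CPM in the wild-type-labelled libraries. Iars, which charges isoleucine, was at 80.3, 45.9, 15.4 and 22.6 CPM in the knockout-labelled libraries and 183, 123 and 108 CPM in the wild-type-labelled libraries. Again no libraries overlapped, with log2 fold changes of −2.15 ± 0.38 for Sars (limma adjusted p = 0.00708) and −1.96 ± 0.53 for Iars (limma adjusted p = 0.04). Gars, Tars and Aars, for glycine, threonine and alanine, did not overlap between the groups but did not pass, at −1.03 ± 0.34, −0.81 ± 0.25 and −3.35 ± 1.16. The fold change of Aars includes its exact 0 in replicate 2 of the labelled knockout, which may be a failed estimate. Lars and Wars, for leucine and tryptophan, were nearest to 0, at −0.25 ± 0.24 and −0.39 ± 0.51.

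**Figure D2:**
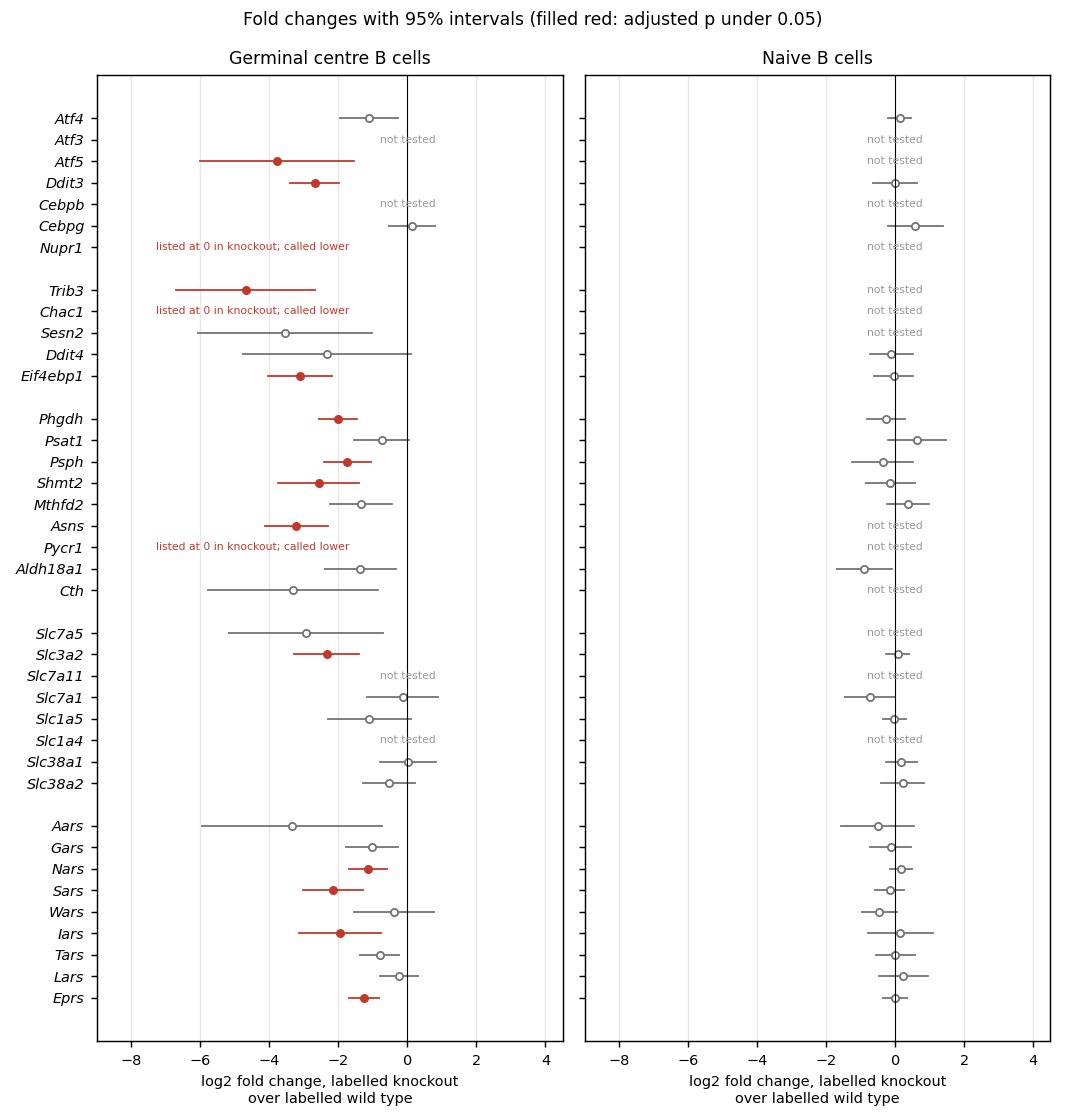
Log2 fold changes between the labels, knockout over wild type, with 95% intervals for the members, in germinal centre B cells (left) and naive B cells (right), filled red where limma's adjusted p was under 0.05. In germinal centre B cells 16 of 34 tested members were called, all to the left of 0 or listed at 0 in the labelled knockout, and in naive B cells 0 of 25 were.

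The members' pathways reach beyond these 38 genes, and 8 further lists were counted in germinal centre B cells, to be read against the 5.09% of all genes that were lower and the 8.54% that were higher. Of 15 other cytosolic synthetases and partners tested, 3 were lower in the labelled knockout and 0 higher. These were Cars, for cysteine, at 86.7, 45.3, 36.5 and 44.7 CPM in the knockout-labelled libraries and 210.5, 162 and 293 CPM in the wild-type-labelled libraries (limma adjusted p = 0.00449), Mars1, for methionine and named Mars in the other tables (log2 fold change −2.63 ± 0.63), and Yars, for tyrosine (−1.25 ± 0.32). Of 15 mitochondrial synthetases tested, 0 were lower and 1, Fars2, was higher. Other stress targets gave 3 lower of 10 tested, the endoplasmic reticulum genes Herpud1 (−0.67 ± 0.13) and Ero1l (−1.69 ± 0.40) and the autophagy receptor Sqstm1 (−1.65 ± 0.46), and 1 higher, Txnip, the thioredoxin-binding protein, at 83.5, 138, 69.2 and 56.0 CPM in the knockout-labelled libraries and 12.8, 13.9 and 12.5 CPM in the wild-type-labelled libraries. Among enzymes of glutamine, aspartate and proline, 2 of 14 tested were higher: Glul, which makes glutamine, was at 94.8, 139, 103 and 81.0 CPM in the knockout-labelled libraries and 11.7, 21.9 and 16.5 CPM in the wild-type-labelled libraries, a log2 fold change of 2.58 ± 0.34 (limma adjusted p = 0.00174), and Glud1, glutamate dehydrogenase, followed at 0.97 ± 0.28. Among 13 folate and glycine genes tested, 2 were higher and 0 lower, the mitochondrial serine carrier Sfxn1 (0.88 ± 0.18) being 1 of the 2.

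Of 12 other amino acid transporters tested in germinal centre B cells, 2 were lower and 0 higher. Slc7a3, a cationic amino acid importer that passed the filter only through the wild-type-labelled group, was listed at 0 in all 4 knockout-labelled libraries and at 21.4, 22.8 and 56.0 CPM in the wild-type-labelled ones. Slc15a3, a lysosomal peptide and histidine carrier, was at 11.8, 0, 0 and 28.8 CPM in the knockout-labelled libraries and 168, 107 and 74.6 CPM in the wild-type-labelled libraries. Among 25 amino acid sensing and mTORC1 genes tested, 3 were higher, the sestrin Sesn1 (1.89 ± 0.38), the lysosomal scaffold gene Lamtor2 (0.90 ± 0.18) and the S6 kinase gene Rps6kb1 (1.20 ± 0.30), and 2 lower, Lamtor1 (−0.92 ± 0.25) and Flcn (−1.49 ± 0.43). Of 16 eIF2 kinases and eIF2 or eIF2B subunits, only Eif2s2, the eIF2 beta subunit, passed, lower at −0.56 ± 0.13. The lists' median log2 fold changes ranged between −0.47 and 0.20, against 0.03 over all genes.

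In naive B cells no member passed the test between the labels: 0 of 25 tested did, as did 0 of the 8832 genes tested (0% in either direction), and limma's smallest adjusted p was 0.728 over all genes and 0.740 over the members. Before adjustment, 587 genes and 2 members had p under 0.05. The median log2 fold change of the members was −0.01, the same as over all genes. Atf4 was at 119, 111 and 104 CPM in naive libraries labelled knockout and 88.0, 107 and 110.1 CPM in the wild-type-labelled ones, overlapping, with a log2 fold change of 0.13 ± 0.14 and an interval of −0.20 to 0.47. Ddit3 was at 44.6, 36.5 and 36.8 CPM in the knockout-labelled libraries and 53.7, 42.4 and 26.6 CPM in the wild-type-labelled libraries, interleaved, with a 95% interval of −0.65 to 0.64 around the log2 fold change. Slc3a2 was at 200.2, 154 and 164 CPM in the knockout-labelled libraries and 147, 182 and 163 CPM in the wild-type-labelled libraries, again interleaved, with an interval of −0.27 to 0.41. Phgdh was at 22.3, 26.8 and 30.1 CPM in the knockout-labelled libraries and 37.0, 32.5 and 26.3 CPM in the wild-type-labelled libraries, and Psat1 at 24.8, 32.1 and 23.4 CPM in the knockout-labelled libraries and 26.0, 17.6 and 10.2 CPM in the wild-type-labelled libraries. Both genes overlapped between the labels, and their log2 fold changes had opposite signs, −0.26 ± 0.24 for Phgdh and 0.63 ± 0.36 for Psat1.

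The other 13 members averaged under 10 CPM over the 6 naive libraries and were not tested. Chac1 and Cth were listed at 0 in all 6 naive libraries. Nupr1 was at 0, 2.00 and 0 CPM in the knockout-labelled libraries and 0 in all 3 labelled wild type, and Trib3 was at 0 in the 3 knockout-labelled libraries, against 0, 0 and 4.92 CPM in the wild-type-labelled libraries. Asns was at 0, 3.66 and 4.23 CPM in the knockout-labelled libraries and 2.91, 0 and 1.76 CPM in the wild-type-labelled libraries, and Slc7a5 at 9.48, 8.25 and 0.705 CPM in the knockout-labelled libraries and 7.35, 0 and 3.25 CPM in the wild-type-labelled libraries. These low values overlapped between the labels. Slc7a11 was at 0.879, 1.40 and 0.940 CPM in the knockout-labelled libraries and 1.68, 1.03 and 1.76 CPM in the wild-type-labelled libraries. Among the tested members, the naive libraries did not overlap for Mthfd2 and Nars (higher in the labelled knockout, against 5.99% of genes) and Slc7a1 (lower, against 7.61%).

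The difference between the effects of the genotype label was itself tested. The naive effect was subtracted from the germinal centre effect in 1 limma fit over 13 libraries and 8871 genes that both tables list. The effect was more negative in germinal centre than in naive B cells for 10 of 29 members tested, against 2.82% of all genes, and more positive for 0, against 5.02%. These were Ddit3, Nupr1, Eif4ebp1, Phgdh, Shmt2, Asns, Slc3a2, Nars, Sars and Eprs. The largest passing difference among genes above 0 in every library was that of Eif4ebp1, at −3.07 ± 0.53 on the log2 scale (limma adjusted p = 0.00354), and that of Ddit3 followed at −2.69 ± 0.40 (limma adjusted p = 0.00163). Atf4 did not pass, at −1.25 ± 0.44 (limma adjusted p = 0.118). Nupr1 and Asns did not average at least 10 CPM in each of the 4 groups and entered the fit through germinal centre libraries. Among the 24 members that did, 8 were more negative, against 2.9% of 6147 such genes. Without replicate 1 of the germinal centre libraries labelled wild type the count was 6 of 29, against 2.01% of genes. The germinal centre table was made apart from the naive one, and only what both genotypes of a table share cancels in this difference.

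Set side by side over the 6 groups, most members were highest in the germinal centre libraries labelled wild type. On the deposited CPM, that group had the highest mean for 30 of the 38 members. With immunoglobulin genes and Jchain taken out of each library's total it had the highest mean for 23, bone marrow secreting cells for 8 and spleen secreting cells for 5. Pycr1 reached 248, 339.6 and 336 CPM on that reduced total in bone marrow secreting cells and 137, 261.01 and 132 CPM in spleen secreting cells, with 21.1, 50.3 and 39.6 CPM in germinal centre libraries labelled wild type, and 0 to 5.60 CPM in naive libraries. Nupr1 ran the other way, at 157, 131 and 86.7 CPM in the germinal centre libraries labelled wild type but 26.1, 12.9 and 10.9 CPM in bone marrow and 14.6, 15.4 and 19.6 CPM in spleen secreting cells. These levels across separately made tables are described without a test.

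**Figure D3:**
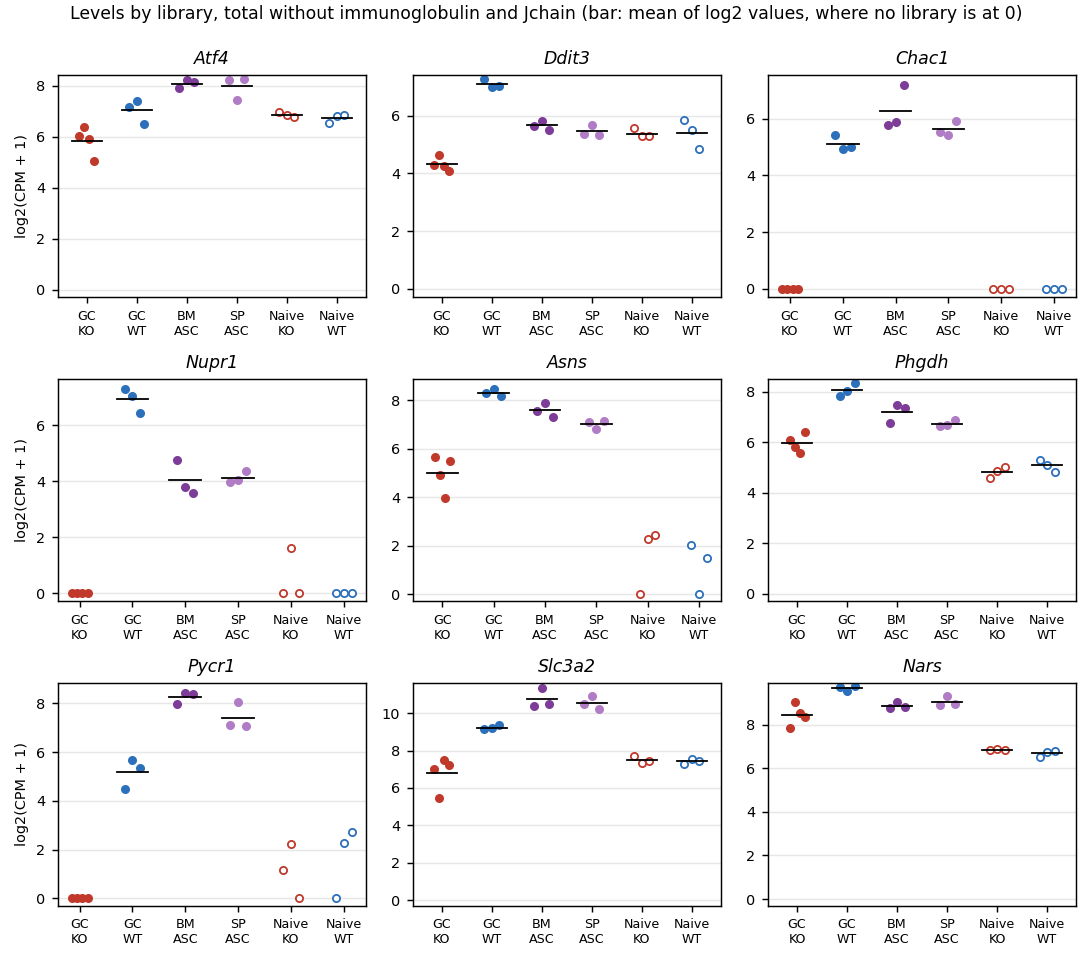
Level of 9 members in every library of the 6 groups, as log2(CPM + 1) on the total without immunoglobulin genes and Jchain, with a bar at the mean of a group that has no library at 0 (GC, germinal centre B cells; BM and SP ASC, bone marrow and spleen antibody-secreting cells; KO and WT as labelled). Chac1, Asns and Pycr1 sit at or near 0 in naive B cells and well above it in all 6 secreting-cell libraries, while the Ddit3 libraries of secreting and naive cells overlap.

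Against naive B cells labelled wild type, most members were higher in antibody-secreting cells of both tissues. On the total without immunoglobulin genes and Jchain, 22 of 30 members tested were higher and 0 lower in bone marrow secreting cells, and 20 higher and 1 lower in spleen secreting cells. Over all 9210 genes tested in the same limma fit of 12 libraries, 16.6% were higher and 16.1% lower in bone marrow, and 15.9% higher and 16.4% lower in spleen. The median log2 fold change of the members was 1.43 in bone marrow and 1.16 in spleen secreting cells, against −0.05 in bone marrow and −0.12 in spleen over all genes. Of the 30, 5 (Atf5, Chac1, Asns, Pycr1 and Slc7a5) passed the filter only through secreting cells. They had to differ, so they support nothing in these counts or medians. Of the other 25, 17 passed in bone marrow, all higher, and 16 in spleen, where Slc38a1 was the lower one. Among genes that averaged at least 10 CPM in both groups, 14.4% were called higher in bone marrow (of 7669) and 14% in spleen (of 7610). The 2 comparisons share their naive libraries. On the deposited total, of which immunoglobulin takes most in secreting cells, the directions turn: 3 members (Asns, Pycr1 and Slc3a2) were higher and 17 lower in bone marrow, against 4.05% of 7607 genes higher and 89% lower. In spleen 4 (these and Nars) were higher and 12 lower, against 5.35% higher and 83.3% lower. On that total the median of all genes was itself at −2.31 in bone marrow and −1.95 in spleen. Neutrophil markers (6 genes, 5 higher) summed to 53.7 to 264 deposited CPM in bone marrow secreting cells, against 0.459 to 161 CPM in naive libraries labelled wild type, and their part in the bone marrow values was not tested. In the values below, CPM is on the total without immunoglobulin genes and Jchain.

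**Figure D4:**
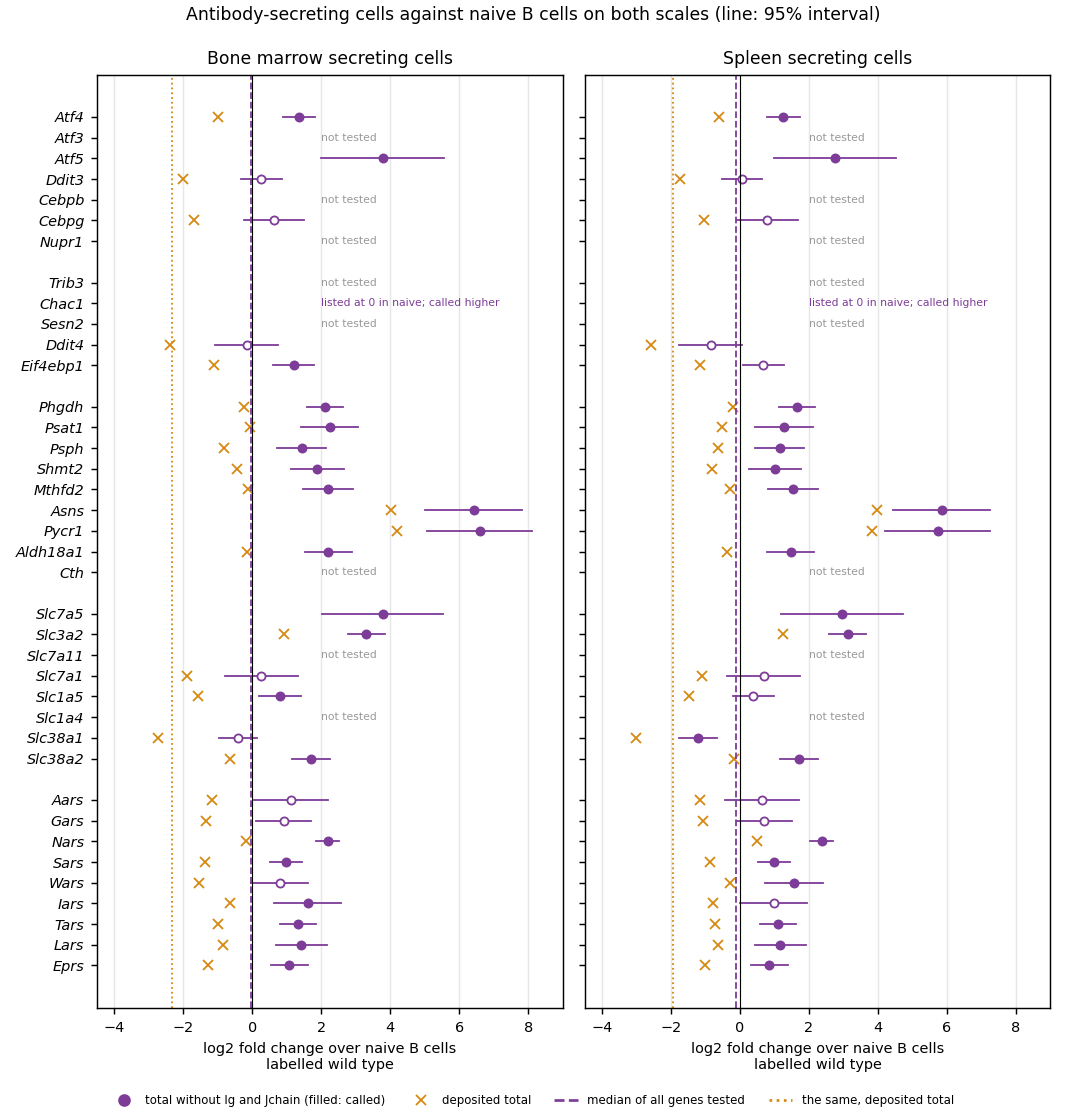
Log2 fold changes of the members in bone marrow (left) and spleen (right) secreting cells over naive B cells labelled wild type, in purple on the total without immunoglobulin genes and Jchain with 95% intervals (filled where limma's adjusted p was under 0.05) and in orange on the deposited total, with vertical lines at the median of all genes tested. In purple 22 members in bone marrow and 20 in spleen are called to the right of 0 (Chac1, listed at 0 in naive cells, by its text), and in orange all but Asns, Pycr1, Slc3a2 and, in spleen, Nars lie left of it.

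Among the transcription factors, Atf4 was at 239, 299.5 and 282.3 CPM in bone marrow and 302, 174 and 311 CPM in spleen secreting cells, against 92.0, 112 and 115 CPM in naive cells. All 6 secreting-cell libraries were above the 3 naive ones, at log2 fold changes of 1.36 ± 0.22 in bone marrow (limma adjusted p = 0.000469) and 1.26 ± 0.22 in spleen (0.000787). Atf5, which passed the filter only through secreting cells, was at 41.2, 44.5 and 71.6 CPM in bone marrow and 56.8, 10.2 and 24.5 CPM in spleen. It was at 7.28, 5.54 and 0 CPM in naive cells. The log2 fold changes were 3.78 ± 0.81 in bone marrow and 2.75 ± 0.81 in spleen. Ddit3 did not follow. It was at 49.2, 55.4 and 45.0 CPM in bone marrow and 39.9, 50.2 and 39.5 CPM in spleen secreting cells, against 56.2, 44.2 and 27.8 CPM in naive cells, overlapping, with 95% intervals of −0.32 to 0.86 in bone marrow and −0.53 to 0.65 in spleen. Nupr1, below the filter in this fit, was above 10 CPM in all 6 secreting-cell libraries and at 0 in all 3 naive libraries labelled wild type. Cebpg did not pass, at 0.63 ± 0.40 in bone marrow and 0.80 ± 0.40 in spleen, and Atf3 and Cebpb were too low to test.

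Of the 3 stress effectors tested, Chac1, which passed the filter only through secreting cells, passed in both tissues. It was at 53.9, 57.8 and 145 CPM in bone marrow and 45.3, 41.6 and 59.3 CPM in spleen secreting cells, and listed at 0 in all 3 naive libraries (limma adjusted p = 1.89e-06 in bone marrow and 4.46e-06 in spleen). Bone marrow replicate 3 was the highest of the 6. Eif4ebp1 was at 90.9, 74.6 and 103 CPM in bone marrow and 62.4, 82.3 and 45.0 CPM in spleen secreting cells, against 37.4, 29.0 and 50.6 CPM in naive cells. It passed in bone marrow, where no libraries overlapped with naive ones (1.20 ± 0.27, limma adjusted p = 0.00509), and not in spleen (0.68 ± 0.27, limma adjusted p = 0.0804). Ddit4 did not pass. Trib3 was at 0, 0 and 24.6 CPM in bone marrow and 11.8, 4.92 and 0 CPM in spleen secreting cells, against 0, 0 and 5.14 CPM in naive cells, and was not tested, nor was Sesn2.

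All 8 biosynthetic enzymes tested were higher in both tissues, of which Asns and Pycr1 passed the filter only through secreting cells and had to be. Asns was at 187, 235.3 and 159 CPM in bone marrow and 136, 111 and 142 CPM in spleen secreting cells, against 3.04, 0 and 1.83 CPM in naive cells, at log2 fold changes of 6.42 ± 0.64 (limma adjusted p = 1.33e-05) and 5.85 ± 0.64 (2.66e-05). Pycr1 was at 248, 339.6 and 336 CPM in bone marrow and 137, 261.01 and 132 CPM in spleen secreting cells, against 0, 3.84 and 5.60 CPM in naive cells, at 6.59 ± 0.69 (limma adjusted p = 1.95e-05) and 5.73 ± 0.69 (5.79e-05). For both genes the naive libraries were at or near 0, so these fold changes depend on the 1 CPM added before taking logs. Aldh18a1, the enzyme that starts the path Pycr1 ends, was at 163, 158 and 208 CPM in bone marrow and 138, 86.6 and 96.8 CPM in spleen secreting cells, against 25.5, 43.5 and 46.1 CPM in naive cells. No libraries overlapped with the naive ones, at 2.21 ± 0.31 in bone marrow and 1.47 ± 0.31 in spleen.

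The 3 serine enzymes were higher together. Phgdh was at 107, 180.4 and 162 CPM in bone marrow and 99.2, 102 and 117 CPM in spleen secreting cells, against 38.6, 33.9 and 27.4 CPM in naive cells. Psat1 was at 66.5, 66.7 and 148 CPM in bone marrow and 44.2, 38.4 and 49.8 CPM in spleen secreting cells, against 27.2, 18.3 and 10.64 CPM in naive cells. Psph was at 53.9, 56.8 and 40.3 CPM in bone marrow and 43.4, 36.2 and 43.5 CPM in spleen secreting cells, against 24.9, 14.3 and 15.6 CPM in naive cells. In none of the 3 did secreting-cell libraries overlap the naive ones, and the log2 fold changes were 2.11 ± 0.24 in bone marrow and 1.65 ± 0.24 in spleen for Phgdh, 2.25 ± 0.38 in bone marrow and 1.28 ± 0.38 in spleen for Psat1, and 1.44 ± 0.33 in bone marrow and 1.16 ± 0.33 in spleen for Psph. Their adjusted p in limma was between 3.48e-05 and 0.0223. Shmt2 was at 84.6, 187 and 147 CPM in bone marrow and 98.2, 54.4 and 69.7 CPM in spleen secreting cells, against 37.1, 48.3 and 23.9 CPM in naive cells, at 1.89 ± 0.35 in bone marrow and 1.02 ± 0.35 in spleen. Mthfd2 was at 64.4, 82.5 and 125 CPM in bone marrow and 87.0, 49.5 and 38.6 CPM in spleen secreting cells, against 18.7, 17.3 and 18.8 CPM in naive cells, at 2.20 ± 0.33 in bone marrow and 1.54 ± 0.33 in spleen. The naive libraries were the lowest for both of these mitochondrial enzymes. Cth was near 0 in secreting and naive cells and was not tested.

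Among transporters, both chains of the CD98 exchanger were called higher in secreting cells. Of these, Slc7a5 passed the filter only through secreting cells and had to be higher. Slc3a2 was at 1330.0, 2561 and 1447 CPM in bone marrow and 1434, 1961 and 1204 CPM in spleen secreting cells, against 154, 189 and 170.3 CPM in naive cells, at 3.31 ± 0.25 (limma adjusted p = 1.24e-06) and 3.13 ± 0.25 (1.75e-06). Its light-chain partner Slc7a5 was at 43.8, 47.0 and 45.2 CPM in bone marrow and 28.6, 26.9 and 20.7 CPM in spleen secreting cells, against 7.68, 0 and 3.39 CPM in naive cells, at 3.78 ± 0.81 in bone marrow and 2.96 ± 0.81 in spleen. Neither overlapped. Slc38a2 was at 229, 170.0 and 197.8 CPM in bone marrow and 238, 169 and 195 CPM in spleen secreting cells, against 77.9, 68.9 and 40.6 CPM in naive cells, at 1.70 ± 0.25 in bone marrow and 1.70 ± 0.25 in spleen. Its relative Slc38a1 went the other way in spleen: it was at 106, 70.7 and 85.6 CPM in bone marrow and 38.1, 48.2 and 64.8 CPM in spleen secreting cells, against 132, 129 and 90.0 CPM in naive cells, lower in spleen (−1.21 ± 0.25, limma adjusted p = 0.00269) and not called in bone marrow (−0.41 ± 0.25). Slc1a5 was at 375, 683 and 475 CPM in bone marrow and 439.9, 237 and 491 CPM in spleen secreting cells, against 288, 279.9 and 280.2 CPM in naive cells, and passed in bone marrow only (0.81 ± 0.28, limma adjusted p = 0.0421), the difference between tissues not passing its own test. Slc7a1 did not pass. Slc7a11 stayed low, at 0.842, 1.98 and 3.10 CPM in bone marrow and 0.512, 0.656 and 1.54 CPM in spleen secreting cells, against 1.76, 1.07 and 1.83 CPM in naive cells.

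All 9 synthetases had positive fold changes in both tissues, and 6 passed in each. Nars had the smallest p of all members: it was at 432, 519 and 447 CPM in bone marrow and 477, 637 and 489 CPM in spleen secreting cells, against 89.8, 105 and 111 CPM in naive cells, at 2.18 ± 0.15 (limma adjusted p = 8.63e-07) and 2.37 ± 0.15 (4.07e-07). Sars was at 126, 106 and 174 CPM in bone marrow and 141, 119 and 146 CPM in spleen secreting cells, against 75.05, 55.6 and 72.0 CPM in naive cells. Eprs was at 260.5, 176 and 149 CPM in bone marrow and 149, 225 and 129.7 CPM in spleen secreting cells, against 77.8, 92.5 and 100.2 CPM in naive cells. The log2 fold changes were 0.97 ± 0.21 in bone marrow and 1.00 ± 0.21 in spleen for Sars and 1.07 ± 0.24 in bone marrow and 0.86 ± 0.24 in spleen for Eprs. Tars was at 103, 77.6 and 96.7 CPM in bone marrow and 71.4, 97.7 and 71.5 CPM in spleen secreting cells, against 30.6, 31.5 and 49.1 CPM in naive cells, at 1.32 ± 0.24 in bone marrow and 1.11 ± 0.24 in spleen. Lars was at 37.5, 58.3 and 56.1 CPM in bone marrow and 48.6, 54.1 and 26.9 CPM in spleen secreting cells, against 15.4, 22.6 and 16.3 CPM in naive cells, at 1.43 ± 0.34 in bone marrow and 1.17 ± 0.34 in spleen. None of these 5 overlapped with naive libraries. Wars was at 172, 120.1 and 173 CPM in bone marrow and 449.9, 126 and 321 CPM in spleen secreting cells, against 90.6, 95.5 and 78.2 CPM in naive cells, and passed in spleen only (1.57 ± 0.38, limma adjusted p = 0.00756). Iars was at 56.0, 31.1 and 64.1 CPM in bone marrow and 51.9, 27.2 and 20.5 CPM in spleen secreting cells, against 12.4, 24.1 and 11.5 CPM in naive cells, and passed in bone marrow only (1.61 ± 0.44, limma adjusted p = 0.0151). For neither gene did the difference between the tissues pass its own test, and Aars and Gars passed in neither tissue.

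Of the 16 members lower in the germinal centre libraries labelled knockout, 11 were also among the 19 that were higher in secreting cells of both tissues: Asns, Atf5, Chac1, Eprs, Nars, Phgdh, Psph, Pycr1, Sars, Shmt2 and Slc3a2. Of the members lower there and tested in the secreting-cell fit, 11 of 14 (78.6%) were higher in both tissues, against 120 of all 309 such genes (38.8%). Of members tested in all these comparisons, lower or not, 19 of 30 (63.3%) were higher in both tissues, against 12.8% of 7148 genes. Atf5, Chac1, Pycr1 and Asns passed a filter only through the group in which they are high. With a mean of at least 10 CPM in every group compared, 7 of 10 lower members were higher in both, against 39.4% of lower genes. Of all 24 members with such means, 58.3% were higher in both tissues, against 12.4% of 5669 genes. The comparisons share no libraries, and the overlap was not tested. The other 5 of the 16, Ddit3, Eif4ebp1, Iars, Nupr1 and Trib3, were not called in both tissues. As given above, the germinal centre libraries labelled knockout were also lower in 5 of 8 antibody-secreting markers, and the part of those in this overlap was not tested.

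Between bone marrow and spleen secreting cells, 0 of 30 members passed, against 1.11% of 9210 genes, with a smallest adjusted p in limma of 0.170 among members, that of Slc38a1. Before adjustment, 4 members and 1351 genes had p under 0.05. The median log2 fold change of bone marrow over spleen was 0.44 over the members and 0.04 over all genes, and all 8 biosynthetic enzymes tested were positive. Neutrophil markers moved with this comparison: they summed to 53.7 to 264 deposited CPM in bone marrow and 0.061 to 25.4 CPM in spleen secreting cells, and 2 of 6 (Mpo and Elane) were called higher in bone marrow. Their part in the members' values was not tested. The bone marrow libraries did not overlap the spleen ones, all lying above them, for Psat1, Asns, Aldh18a1, Slc7a5 and Slc38a1, against 8.02% of genes. On the deposited total 1 member, Nars, was lower in bone marrow, against 7.19% of genes. For Atf4 the 95% interval of the log2 fold change was −0.37 to 0.57, for Slc3a2 −0.36 to 0.72, for Phgdh −0.06 to 0.99 and for Psat1 0.14 to 1.80. With 2.03 to 3.88 M reads outside immunoglobulin and Jchain per bone marrow library and 3.06 to 4.54 M per spleen library, low members such as Trib3 and Cth rest on few reads.

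The further lists in secreting cells are to be read against the 16.6% of all genes higher and 16.1% lower in bone marrow, and the 15.9% higher and 16.4% lower in spleen. Of 12 other stress targets tested, 8 were higher and 1 lower in each tissue. Herpud1, an endoplasmic reticulum degradation factor, was at 6244, 4266 and 3901 CPM in bone marrow and 3733, 4087 and 2532 CPM in spleen secreting cells, against 185, 247 and 256 CPM in naive cells. Creb3l2, a membrane-bound transcription factor of secretory cells, was at 146, 174 and 107 CPM in bone marrow and 190.0, 106 and 204 CPM in spleen, against 6.88, 10.3 and 5.69 CPM in naive cells. The pseudokinase gene Trib1, a relative of Trib3, was higher on the log2 scale by 3.64 ± 0.40 in bone marrow and 3.08 ± 0.40 in spleen, and the autophagy gene Map1lc3b by 1.23 ± 0.17 in bone marrow and 1.39 ± 0.17 in spleen. Of 12 enzymes of glutamine, aspartate and proline, 6 were higher and 0 lower in bone marrow, and 6 higher and 2 lower in spleen. The aspartate aminotransferase Got1 was higher by 1.98 ± 0.28 in bone marrow and 1.30 ± 0.28 in spleen. Bcat1, the cytosolic branched-chain transaminase, was at 16.4, 11.9 and 102 CPM in bone marrow and 30.9, 33.8 and 43.9 CPM in spleen and listed at 0 in all 3 naive libraries, and the alanine transaminase Gpt2 was higher by 4.21 ± 0.82 in bone marrow and 3.30 ± 0.82 in spleen. Asnsd1, which carries an asparagine synthetase domain, was lower in spleen at −1.33 ± 0.23.

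Of 15 other cytosolic synthetases and partners, 4 were higher and 0 lower in each tissue, led by Yars at 177, 214 and 174 CPM in bone marrow and 158, 199.7 and 155 CPM in spleen secreting cells, against 32.3, 24.9 and 32.9 CPM in naive cells. Mars and Kars, for methionine and lysine, were higher in both tissues, Cars in bone marrow and Hars, for histidine, in spleen. The 16 mitochondrial synthetases tested gave 0 higher, with 3 lower in bone marrow (Pars2, Mars2 and Ears2) and 2 in spleen (Mars2 and Ears2). Of 14 eIF2 kinase and eIF2 genes, Impact, an inhibitor of the amino acid sensing eIF2 kinase, was higher by 2.69 ± 0.26 in bone marrow and 2.12 ± 0.26 in spleen, and Eif2s2 by 1.00 ± 0.20 in bone marrow and 1.00 ± 0.20 in spleen. Among 25 sensing and mTORC1 genes, 3 were higher in each tissue, with Sec13 and Mtor in both, while Sesn3 was lower in both (−3.76 ± 0.91 in bone marrow and −2.92 ± 0.91 in spleen) and Depdc5, an mTORC1 inhibitor subunit, in bone marrow (−3.55 ± 0.59). Of 11 other amino acid transporters, Slc38a10 was higher in both tissues (1.55 ± 0.32 in bone marrow and 1.65 ± 0.32 in spleen) and Slc7a6 in spleen, and in bone marrow Slc38a9, the lysosomal arginine sensor, and the taurine carrier Slc6a6 were lower. Of 12 folate and glycine genes, 2 were higher in bone marrow, Sfxn1 (1.32 ± 0.30) among them, 1 was lower there, the mitochondrial folate carrier Slc25a32 (−2.97 ± 0.98), and 0 passed in spleen. Bcat1, Gpt2, Creb3l2, Impact and Mtor, which were higher, and Pars2, Ears2, Slc38a9 and Depdc5, which were lower, did not average at least 10 CPM in both groups compared, so the filter favoured their direction. Between bone marrow and spleen, Pars2 alone of these 8 lists passed, lower in bone marrow.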

How the data were processed

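The authors deposited CPM (read counts scaled to a common library total) per gene in 4 tables, and reads were aligned with STAR to mm10, per the submitters' processing notes. The sources used here name no counting tool, annotation or strand setting. The germinal centre table carried 0.0001 on each value, which was subtracted, and 19 rows were left out of each of the other 3 tables. Low values fell on whole reads (within 0.02) for 58.9 to 67.8% of germinal centre values and 85.2 to 88.8% of the others. The steps gave depth, 10.2 to 21.6 M reads per library, but no count test was run.

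Tests used limma 3.58.1 in R 4.3.3, with a mean-variance trend, on log2(CPM + 1) of genes averaging at least 10 CPM, with Benjamini-Hochberg adjustment over all genes tested. The fold changes therefore understate changes of genes at low values. The genotype comparisons in germinal centre and naive cells used their own tables. Secreting and naive cells were fitted together over 12 libraries of 3 tables that list the same genes, with the CPM rescaled after removing immunoglobulin genes and Jchain. The difference of genotype effects was fitted over 13 libraries. The fits were tested on simulated data with known changes. Of 2-fold and 4-fold changes, 8% and 28% were recovered in the germinal centre fit, and 32% and 60% in the naive fit. The other comparisons recovered 6 to 26% and 36 to 72%. A gene that did not pass may therefore still differ. Tables and figures were made with Python 3.11.15, pandas 2.3.3, SciPy 1.17.1 and matplotlib 3.10.9.

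Members, gene lists and marker lists were chosen with earlier results of these data known. Atf4, Ddit3, Asns, Trib3, Chac1, Nupr1, Phgdh, Psat1, Slc3a2, Slc7a5, Slc7a11 and any member that passed are given library by library, the other members by counts and fold changes, and from each further list at most 4 genes that passed, by adjusted p. Some genes of the further lists that passed are not reported here. Same-numbered libraries of compared groups did not deviate together (correlations of −0.05 to 0.08). This cannot show whether they came from the same animal, because other spread between libraries could hide an animal's share. The replicate number was used as a block only as an alternative. Other pseudocounts, filters, scalings and totals, and leaving out libraries, were tried as well.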

Additional observations from a re-analysis of the deposited data

Results flagged for a closer look

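The effect of the genotype label differed between germinal centre and naive libraries for 10 of 29 members tested, all more negative in the former. Limma's test of the difference was used (Benjamini-Hochberg adjusted p under 0.05 over 8871 genes). Over all these genes 2.82% were more negative and 5.02% more positive. The differences on the log2 scale were −2.69 for Ddit3, −3.07 for Eif4ebp1, −1.75 for Phgdh, −2.44 for Shmt2, −3.61 for Asns, −2.42 for Slc3a2, −1.31 for Nars, −1.98 for Sars and −1.26 for Eprs. Nupr1 was listed at 0 in all 4 germinal centre libraries labelled knockout and in 5 of the 6 naive libraries, so no value is given for it. Nupr1 and Asns did not average at least 10 CPM in each of the 4 groups. Among the 24 members that did, 8 were more negative, against 2.9% of 6147 such genes. As given above, germinal centre markers were low in the wild-type-labelled germinal centre libraries, and Pik3cg did not separate the labels. The part of either in these differences was not tested.

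A single library stood apart from the other 3 of the germinal centre group labelled knockout, relative to the group's range, for 3 members. These were Cebpg in replicate 2 at 140.0 CPM, Trib3 in replicate 1 at 0.920 CPM and Cth in replicate 4 at 10.0 CPM. For Trib3 the other 3 libraries were at 0, so any value above 0 would have been marked. Of 34 such groups of 4 examined, chance alone would mark about 1 in 20.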

How the results depend on the processing

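The total decides the direction in secreting cells. On the deposited total, the log2 fold change over naive cells turned negative in bone marrow for Atf4 (−1.0002), Eif4ebp1 (−1.11), Phgdh (−0.22), Psat1 (−0.057), Psph (−0.83), Shmt2 (−0.44), Mthfd2 (−0.11), Aldh18a1 (−0.14), Slc1a5 (−1.56), Slc38a2 (−0.65), Nars (−0.19), Sars (−1.36), Iars (−0.64), Tars (−0.99), Lars (−0.83) and Eprs (−1.27). In spleen it turned negative for Atf4 (−0.62), Phgdh (−0.20), Psat1 (−0.52), Psph (−0.64), Shmt2 (−0.81), Mthfd2 (−0.28), Aldh18a1 (−0.38), Slc38a2 (−0.16), Sars (−0.86), Wars (−0.30), Tars (−0.73), Lars (−0.63) and Eprs (−1.01). Between bone marrow and spleen, 1 member (Nars, lower) passed on that total, against 7.19% of genes lower.

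In germinal centre B cells, 6 members passed without replicate 1 of the labelled knockout and replicate 3 of the labelled wild type together. Of all genes, 1.67% were then lower. Leaving out 1 library at a time gave 9 to 19 members there, with 176 to 465 genes lower of 8457 to 8560 tested. In naive cells it gave 0 to 0 members and 0 genes. For the difference of genotype effects it gave 6 to 11 members, with 159 to 333 genes lower of 8838 to 8897. Over naive cells it gave 20 to 23 members in bone marrow, with 1263 to 1498 genes higher of 9143 to 9237. In spleen secreting cells it gave 17 to 21, of which 16 to 20 were higher and 1 was lower. There 1200 to 1506 genes were higher and 1145 to 1714 lower. Between the tissues, leaving out 1 library gave 0 to 1 members, with 29 to 180 genes called. The replicate number as a block gave 15, 0, 8, 21, 20 and 0 members in the same order. In germinal centre B cells Atf5, Trib3 and Nars were then no longer called, and Mthfd2 and Tars were added. With the block fewer of all genes were called in each comparison except naive cells, where none were called either way. For the difference of genotype effects, however, more of all genes were lower with the block than without it. Median-ratio scaling moved the median of all germinal centre genes to −0.08, against 0.03. With it 18 members were lower, Mthfd2 and Tars being added, against 6.01% of genes. Other pseudocounts and filters gave 15 to 20 members in germinal centre B cells. The smaller pseudocount gave fewer members and fewer of all genes lower than the main fit, and the larger one gave more of both. Looser filters on low values tested more genes and called more of them lower, but gave no more members. The cause of these shifts was not tested. In naive cells 3 reads are worth 0.1996 to 0.2932 CPM, and the cause of the exact 0 values of members there was not tested.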
